A study of Mus musculus with 11 samples.

Results

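Genes of DNA replication were followed in cultured mouse oligodendrocytes with and without a conditional knockout of the transcription factor Myrf, and in the progenitors these cells come from. The list held 45 genes of origin licensing, the replicative helicase, DNA synthesis and nucleotide supply. Its members were all probe sets of the Affymetrix Mouse Genome 430 2.0 array that the platform annotation ties to exactly 1 of these genes, which were 101 of the 45101 probe sets. Of these, 78 had 3 or more arrays with a signal of 200 or above, and 43 of the 45 genes were tested among 10069 genes. Orc1 and Tyms had no probe set past that filter. A signal is the brightness of a probe set in the units of the MAS 5.0 algorithm, and levels of different probe sets were not set against each other.

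RNA came from 11 samples of cultured cells. Knockout oligodendrocytes (3 arrays, labelled CKO) had the genotype MRF fl/fl with Olig2 wt/cre, so that Cre recombinase under the Olig2 gene can delete both copies of Myrf, which the labels call MRF. Control oligodendrocytes (4 arrays) were from littermates of the genotype MRF wt/fl with Olig2 wt/cre, and so carried Cre and 1 floxed copy as well. Differentiation of both lasted 4 days, in T3 (a thyroid hormone, 40 ng/ml) and without PDGF-AA. Oligodendrocyte progenitor cells (OPCs, 4 arrays) stayed for 6 days in PDGF. The study's design gives PDGF-AA at 10 ng/ml for the growth of the cells and a serum-free medium with 2% B-27. The titles of the OPC samples call them control and give no genotype. All cells were from brains at postnatal day 7, from which microglia were removed on BSL1, a lectin, before selection for surface PDGFRα. Nothing in the labels tells if a replicate was its own animal or culture, so p-values measure the spread between these samples only, which may be technical.

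Before each division a cell copies its DNA. The origin recognition complex marks the starting points, Cdc6 and Cdt1 load the ring of Mcm2 to Mcm7 there, and Cdc45 and the GINS complex turn this ring into an active helicase. Primase and DNA polymerase α begin new strands, and polymerases δ and ε extend them with the sliding clamp Pcna. Many of these genes are transcribed under E2F factors in dividing cells and are low in cells that have left the cell cycle. OPCs divide in response to PDGF, and differentiating oligodendrocytes stop dividing.

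The promoters are shown because most of these genes moved together and because E2F sites are a known feature of them. Windows of 300 bases that begin 250 bases before the gene start were available from RefSeq (build GRCm38.p6) for 38 of the 45 genes. An exact E2F word (TTTCCCGC, TTTGGCGC, TTTCGCGC or TTTGCCGC, on either strand) stood in the windows of 15 of these 38 genes, which is 39.5%. The share was 2.6% of 27025 genes with such windows and 5.02% of the 8249 genes that were also tested on the arrays. The 15 genes were Mcm3, Mcm5, Mcm6, Mcm7, Orc1, Orc3, Cdc6, Cdt1, Gins3, Pola1, Pold1, Pold3, Pole2, Rfc3 and Lig1. A CCAAT box on either strand was found in 60.5% of the 38 genes, against 41.1% of all genes and 43.8% of those tested. TTTGAA, the core of the cell cycle homology region, was found in 13.2%, against 20.2% and 13.6%. A gene with several start sites was counted when any of its windows held the word. In the lines below, 170 bases just before the start are given 5′ to 3′ on the strand of the gene, with E2F words and CCAAT boxes, or their complements, in capitals. Mcm5 (chr8:75109339-75109508, plus strand), Mcm6 (chr1:128359706-128359875, minus strand), Cdc6 (chr11:98907981-98908150, plus strand) and Pola1 (chrX:93632156-93632325, minus strand) are among the genes that fell, and Orc3 (chr4:34614943-34615112, minus strand) holds a word and passed the test in no comparison. In Mcm5 and Mcm6 a pair of E2F words on opposite strands overlap.
Mcm5: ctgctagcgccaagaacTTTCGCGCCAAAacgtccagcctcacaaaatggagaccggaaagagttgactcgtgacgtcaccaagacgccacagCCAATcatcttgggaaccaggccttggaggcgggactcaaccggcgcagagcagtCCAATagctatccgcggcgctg
Mcm6: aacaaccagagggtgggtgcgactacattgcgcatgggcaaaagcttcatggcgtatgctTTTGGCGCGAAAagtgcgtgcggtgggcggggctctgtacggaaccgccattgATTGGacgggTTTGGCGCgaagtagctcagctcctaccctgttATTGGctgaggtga
Cdc6: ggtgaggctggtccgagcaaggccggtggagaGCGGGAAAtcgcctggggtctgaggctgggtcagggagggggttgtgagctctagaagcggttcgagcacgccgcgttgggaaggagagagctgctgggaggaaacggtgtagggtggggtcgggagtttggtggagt
Pola1: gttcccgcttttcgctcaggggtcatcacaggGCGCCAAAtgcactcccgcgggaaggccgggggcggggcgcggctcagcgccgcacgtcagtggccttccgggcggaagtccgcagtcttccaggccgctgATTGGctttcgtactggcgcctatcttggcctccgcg
Orc3: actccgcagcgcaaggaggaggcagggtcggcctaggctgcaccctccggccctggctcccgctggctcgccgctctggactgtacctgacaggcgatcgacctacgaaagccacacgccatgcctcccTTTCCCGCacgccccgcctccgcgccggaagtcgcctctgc
E2F words stood in 13 of the 31 genes with a window that were lower in both kinds of oligodendrocyte than in OPCs, or 41.9%, and in 1 of the 5 other tested genes with one, or 20.0%. A match is a description of these letters, and binding was not measured.

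The trimmed means of the arrays, 498.6 to 499.9, were set by the scaling of each array to a target of 500. They do not tell how alike the arrays are. Myrf itself gave 2849, 1904 and 2223 on CKO replicates 1 to 3, against 6215 to 7517 on the control arrays. Whether its probe set measures the deleted exons is unknown here. Its OPC signals were 752.1, 6848, 1135 and 970.5 on replicates 1 to 4. OPC replicate 2 stood apart from the other OPC arrays in Myrf and in Pdgfra, the PDGF receptor, which was at 6309 against 13500 to 19102. The myelin gene Mbp was high on both OPC replicates 2 and 3, at 19380 and 15042, against 1338 and 1587 on replicates 1 and 4. OPC replicates 1 and 4 had ratios of 5′ to 3′ Gapdh signal, a sign of RNA length, of 0.332 and 0.12, where the other 9 arrays had 1.15 to 1.41. Control replicate 3 was the highest control array for 39 of the 43 tested genes. Counts over the 43 genes, and values of some of them, are also given without OPC replicate 2 or control replicate 3. For many genes only the fit of all arrays is given, also where 1 of these arrays stood apart. The fit without OPC replicates 1 and 4 is covered only at the end, among the other processing settings.

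Most of the replication genes had lower signals in oligodendrocytes of both genotypes than in OPCs. In control oligodendrocytes against OPCs, 37 of the 43 genes fell and 1, Orc4, rose, in a limma fit of all 11 arrays with Benjamini-Hochberg adjusted p under 0.05. Among all 10069 genes tested, 29.6% fell and 24.4% rose. The median log2 difference of the 43 genes was -1.98, beside -0.09 for all genes. In CKO oligodendrocytes against OPCs, 39 fell and 1, again Orc4, rose, with 26.8% of all genes called lower and 23.8% called higher. The median was -2.24, beside -0.05 for all genes. The same 37 genes were lower in both comparisons, which share the OPC arrays. Fewer dividing cells and less RNA of these genes per cell cannot be told apart in RNA of whole cultures.

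CKO and control oligodendrocytes differed less. No member passed the threshold in either direction in that fit, where 3.88% of all genes were lower and 3.64% higher in CKO cells. At an unadjusted p under 0.05, 4 members were lower, namely Rrm2, Mcm5, Mcm6 and Pole, and 0 were higher, where 8.88% of all genes were lower and 12.3% higher. The count depended on the fit. A fit of the 3 numbered pairs of CKO and control arrays alone, with the number as a block, called 6 members lower (9.24% of all genes). That fit, called the replicate block here, holds neither the OPC arrays nor control replicate 4. Fits without pairing also called members, such as 4 with the 2 groups alone and no block (7.47% of all genes). Of the 43 differences 40 were negative, and their median was -0.37, beside 0.03 for all genes. Every CKO array lay below every control array for 16 members, a pattern that 14.2% of all genes showed, and above for 1, Orc3, as did 17.4% of all genes. Against OPCs, every control array was lower for 15 members (23.7% of all genes), and every CKO array was lower for 34 (26.4% of all genes).

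Without OPC replicate 2 the members called lower were 38 in control oligodendrocytes (32.9% of all genes) and 39 in CKO oligodendrocytes (30.6%), both against OPCs. The medians were then -2.52 and -2.77. CKO against control gave 8 lower without that array (6.52% of all genes). These were Rrm2, Mcm5, Mcm6, Pole, Cdc6, Cdt1, Prim1 and Gins1.

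**Figure D1:**
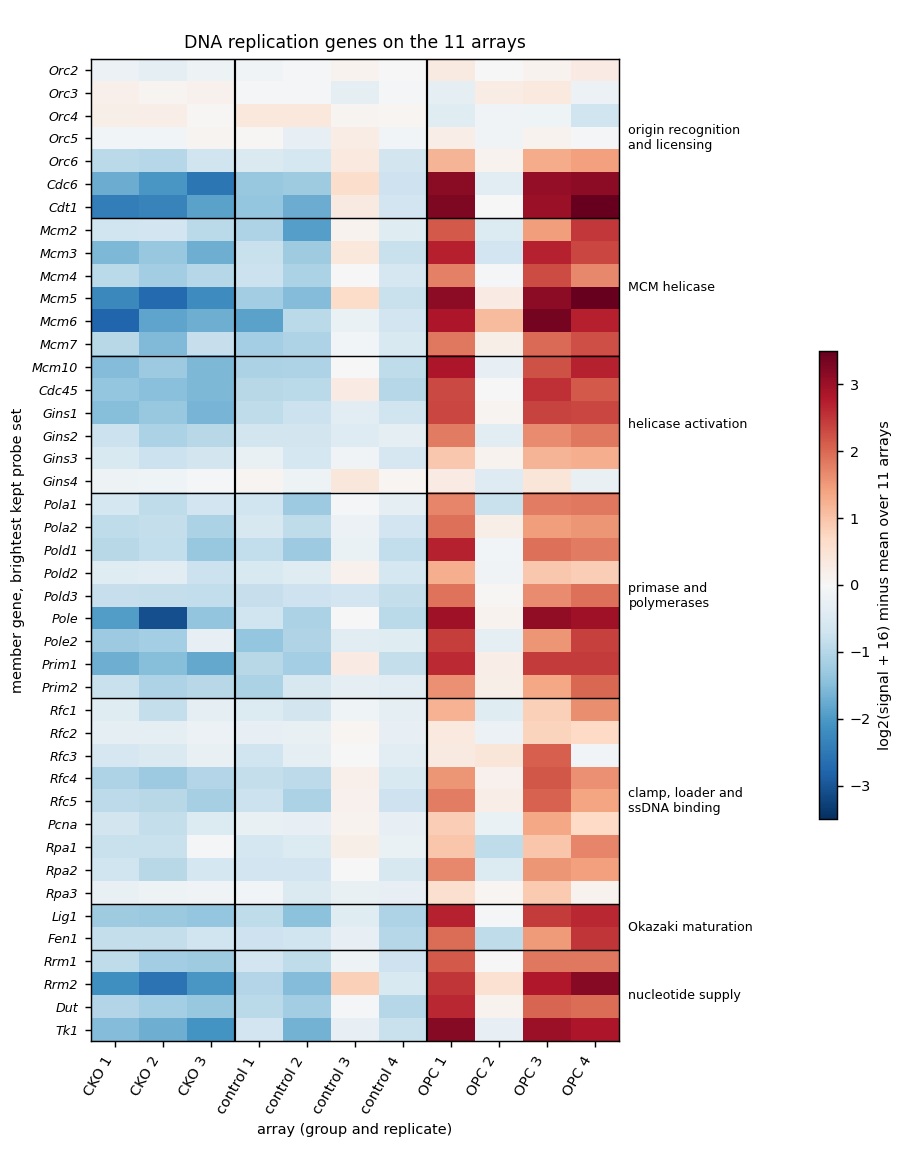
Each row is 1 of the 43 tested genes in order of role and each column 1 array; colour gives log2(signal + 16) minus the gene's mean over the 11 arrays. OPC replicates 1, 3 and 4 are red for most genes, OPC replicate 2 lies near the oligodendrocyte arrays, and the rows of Orc2, Orc3, Orc4, Orc5 and Gins4 are pale beside the rest.

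Origin licensing split by gene. The loading factors Cdc6 and Cdt1 and the subunit Orc6 fell in oligodendrocytes, and among Orc2 to Orc5, further subunits of the origin recognition complex, Orc4 rose, Orc2 passed as lower in CKO cells and not in control cells, and Orc3 and Orc5 passed in no comparison. Whether Orc2 differs between the comparisons was not tested. Cdc6, an ATPase that helps to load the Mcm ring, had 44.0, 32.7 and 18.3 on CKO arrays 1 to 3, 63.3, 67.5, 288 and 104 on control arrays 1 to 4, and 1764, 137, 1651 and 1735 on OPC arrays 1 to 4. CKO, control and OPC arrays overlapped only in that OPC array 2 lay below control array 3. In CKO cells, where every array was under a floor of 100, Cdc6 was at least 9.13-fold lower than in OPCs (limma, adjusted p = 0.000828), and in control cells it was 7.59-fold lower (adjusted p = 0.00526).

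Cdt1, the partner of Cdc6 in loading, had 121, 129 and 183 in CKO cells, 269, 206, 898 and 441 in control cells and 7104, 713, 5976 and 10163 in OPCs. It was 26.7-fold lower in CKO cells (adjusted p = 0.00038) and 10.5-fold lower in control cells (adjusted p = 0.00186) than in OPCs. Without OPC replicate 2 the Cdt1 folds were 47.9 and 18.8, and that of Cdc6 in control cells was 13.9. All CKO arrays lay below all control arrays for both genes, with Cdc6 at least 1.06-fold lower in CKO cells and a log2 difference of -1.35 ± 0.76 (SE) for Cdt1. Their adjusted p-values were 0.325 and 0.337, and with the replicate number as a block Cdt1 passed (0.0324) and Cdc6 did not (0.117). Without OPC replicate 2 both passed, at 0.0417 for Cdt1 and 0.036 for Cdc6.

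Orc6, the smallest subunit of the complex, averaged 476 ± 54.3 in CKO, 722 ± 269 in control and 1914 ± 651 in OPC arrays (SD, n = 3, 4 and 4). It fell 3.73-fold in CKO cells (adjusted p = 0.00056) and 2.58-fold in control cells (adjusted p = 0.00252). Orc3 had 859.8, 802 and 838 in CKO cells, 719, 737, 604 and 712 in control cells and 594, 907, 962 and 649.9 in OPCs. It was the 1 member with every CKO array above every control array, by 0.26 ± 0.19 on the log2 scale, with an adjusted p of 0.478. Orc5 arrays of the 3 groups overlapped, with averages in CKO, control and OPC arrays of 979 ± 72, 993 ± 162 and 1037 ± 115 (SD, n = 3, 4 and 4).

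Orc4 had 1029.7, 1046 and 905 in CKO cells, 1153, 1147, 954 and 931 in control cells and 662, 809, 795 and 542 in OPCs, with no overlap between oligodendrocytes and OPCs. It was 1.49-fold higher in control cells (adjusted p = 0.0126) and 1.42-fold higher in CKO cells (adjusted p = 0.0348) than in OPCs. The CKO call was lost when any 1 of CKO arrays 1 to 3 or OPC arrays 1 and 4 was left out, with adjusted p between 0.0503 and 0.106. Another kept probe set of Orc4 had log2 differences of -0.12 in CKO cells and -0.09 in control cells, and the remaining one had 0.40 and 0.58.

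Orc2 had 831, 772 and 848 in CKO cells, 882, 916, 1051 and 978 in control cells and 1205, 963, 1044 and 1172 in OPCs on its brightest probe set. There the log2 difference of CKO cells from OPCs was -0.41 ± 0.15 (SE, adjusted p = 0.0381), a call that was lost without any 1 of 8 arrays, the 3 of CKO cells, control arrays 1, 2 and 4, and OPC arrays 1 and 4 (adjusted p of 0.0525 to 0.12). Its 2 other kept probe sets had the opposite sign, at 0.23 and 0.44 in CKO cells and 0.40 and 0.82 in control cells. On the dimmer of these, OPC arrays 1 and 4 had 91.5 and 73.3, where OPC arrays 2 and 3 had 429.5 and 323.7. Orc1, the remaining subunit, was at most 80.9 on oligodendrocyte arrays and had 198.9, 58.4, 196.3 and 215.8 on OPC arrays 1 to 4, and was not tested.

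The helicase ring fell as a group. All 6 genes, Mcm2 to Mcm7, were lower in both kinds of oligodendrocyte than in OPCs, and Mcm5 and Mcm6 had the widest differences. Mcm5 had 241, 168 and 249 on CKO arrays, 512, 415, 1879 and 693 on control arrays and 10670.4, 1485, 10652 and 14226 on OPC arrays. OPC array 2 lay below control array 3, and all CKO arrays lay below all others. The fold was 30.3 in CKO cells (limma, adjusted p = 0.000159) and 9.45 in control cells (adjusted p = 0.00144), or 50.6 and 15.8 without OPC replicate 2.

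Between CKO and control oligodendrocytes Mcm5 differed by -1.68 ± 0.69 on the log2 scale (SE), 3.2-fold lower in CKO cells. Its adjusted p was 0.183 over all arrays and 0.0195 with the replicate number as a block, in a range of 0.00502 to 0.446 over 26 alternatives. Without control replicate 3 the difference was -1.23. A second kept probe set of Mcm5, whose OPC signals on arrays 1 to 4 were 2549.9, 539, 3733 and 997, had the same sign in all 3 comparisons.

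Mcm6 had 137, 273 and 300.4 in CKO cells, 269.8, 529.9, 871 and 640.3 in control cells and 7393, 2218, 10682 and 6871 in OPCs. Here all oligodendrocyte arrays were below all OPC arrays, replicate 2 included, and control array 1 lay among the CKO arrays. It was 24.5-fold lower in CKO cells (adjusted p = 3.1e-05) and 10.8-fold lower in control cells (adjusted p = 0.000128) than in OPCs. CKO against control gave -1.19 ± 0.51, with an adjusted p of 0.197, and of 0.0111 with the replicate block.

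Mcm3 had 235, 281 and 214 in CKO cells, 424, 303, 946 and 423 in control cells and 4889, 455, 4809.6 and 3786 in OPCs. OPC array 2 lay inside the control range and above the CKO range. The fold was 9.9 in CKO cells (adjusted p = 0.00207) and 5.17 in control cells (adjusted p = 0.00835), and 17.4 and 9.09 without OPC replicate 2. The CKO arrays were below all control arrays, with a log2 difference of -0.94 ± 0.69 and adjusted p = 0.482.

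Mcm7, a subunit of the catalytic core, had 2016, 1353 and 2266 in CKO cells, 1756, 1880.5, 3721 and 2747 in control cells and 14299.9, 4616, 15897 and 19049.5 in OPCs. Its oligodendrocyte arrays did not overlap with OPCs, and the folds were 6.43 in CKO cells (adjusted p = 0.000412) and 4.91 in control cells (adjusted p = 0.00067). Mcm4 had 761, 621 and 721 in CKO cells, 867, 676, 1453 and 966 in control cells and 4998, 1402, 7145 and 4729.8 in OPCs. Of its OPC arrays only replicate 2 lay within the control range, and the folds were 5.52 (adjusted p = 0.000874) and 4.07 (adjusted p = 0.00172).

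Mcm2 had 574, 589 and 487 in CKO cells, 438, 237, 1036 and 701 in control cells and 4209, 672, 2634 and 5293 in OPCs. It fell 4.48-fold in CKO cells (adjusted p = 0.0124) and 4.66-fold in control cells (adjusted p = 0.00681) against OPCs, or 6.92-fold and 7.19-fold without OPC replicate 2. CKO cells lay inside the wide control range, with a difference of 0.06 ± 0.62. The other kept probe set of Mcm2 gave -0.71 for that difference. The brightest probe sets of Mcm2, Mcm3, Mcm5, Mcm7, Gins2, Fen1 and Rrm2 carry the name endings s or x, which mark probes that can match more than 1 transcript.

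Genes that activate the helicase fell too, apart from Gins4. Of these 6 genes, 5 were lower in both kinds of oligodendrocyte than in OPCs. Cdc45, which joins the ring to make the active helicase, had 78.7, 70.5 and 65.5 in CKO cells, 107, 109.5, 278 and 104 in control cells and 1173, 224, 1386 and 1047 in OPCs. Control array 3 was apart from the 3 other control arrays and above OPC array 2. Cdc45 was at least 7.85-fold lower in CKO cells (adjusted p = 0.000529) and 5.29-fold lower in control cells (adjusted p = 0.00188) than in OPCs, the second being 7.92-fold without OPC replicate 2.

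Mcm10, needed to start the activated helicase, had 67.0, 81.9 and 63.0 in CKO cells, 93.3, 96.3, 217 and 113 in control cells and 1680.1, 178, 1096 and 1501 in OPCs. It was at least 8.37-fold lower in CKO cells (adjusted p = 0.00101) and 6.23-fold lower in control cells (adjusted p = 0.00241), and 10.2-fold in control cells without OPC replicate 2. Gins1, a GINS subunit, had 96.7, 111 and 87.1 in CKO cells, 156, 171, 227 and 179 in control cells and 1593, 324, 1631 and 1586 in OPCs. Its 3 groups did not overlap, and the folds against OPCs were 9.63 in CKO cells (adjusted p = 0.000172) and 5.55 in control cells (adjusted p = 0.000655).

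CKO against control gave a log2 difference of -0.80 ± 0.47 (SE) for Gins1, and Cdc45 and Mcm10 were at least 1.36-fold and 1.22-fold lower in CKO cells, with no overlap for any of the 3. Their adjusted p-values were 0.358, 0.43 and 0.577 with all arrays, and 0.0622, 0.11 and 0.179 with the replicate block. Gins1 passed without OPC replicate 2, at 0.0133.

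Gins2 averaged 169 ± 23.1 in CKO, 233 ± 27.2 in control and 959 ± 477 in OPC arrays, and fell 4.51-fold (adjusted p = 0.00198) and 3.34-fold (adjusted p = 0.00446) in CKO and control cells (SD, n = 3, 4 and 4). Gins3 averaged 117 ± 9.85, 144 ± 27.6 and 385 ± 124 in the same groups, and fell 2.9-fold (adjusted p = 0.00105) and 2.42-fold (adjusted p = 0.00187). Gins4, the remaining GINS subunit, had 1032, 1044 and 1139 in CKO cells, 1252, 1028, 1543 and 1215 in control cells and 1410.2, 838, 1555 and 959.7 in OPCs. The 3 groups overlapped, and against OPCs its log2 differences were -0.11 ± 0.23 in CKO cells (adjusted p = 0.721) and 0.11 ± 0.21 in control cells (adjusted p = 0.676).

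**Figure D2:**
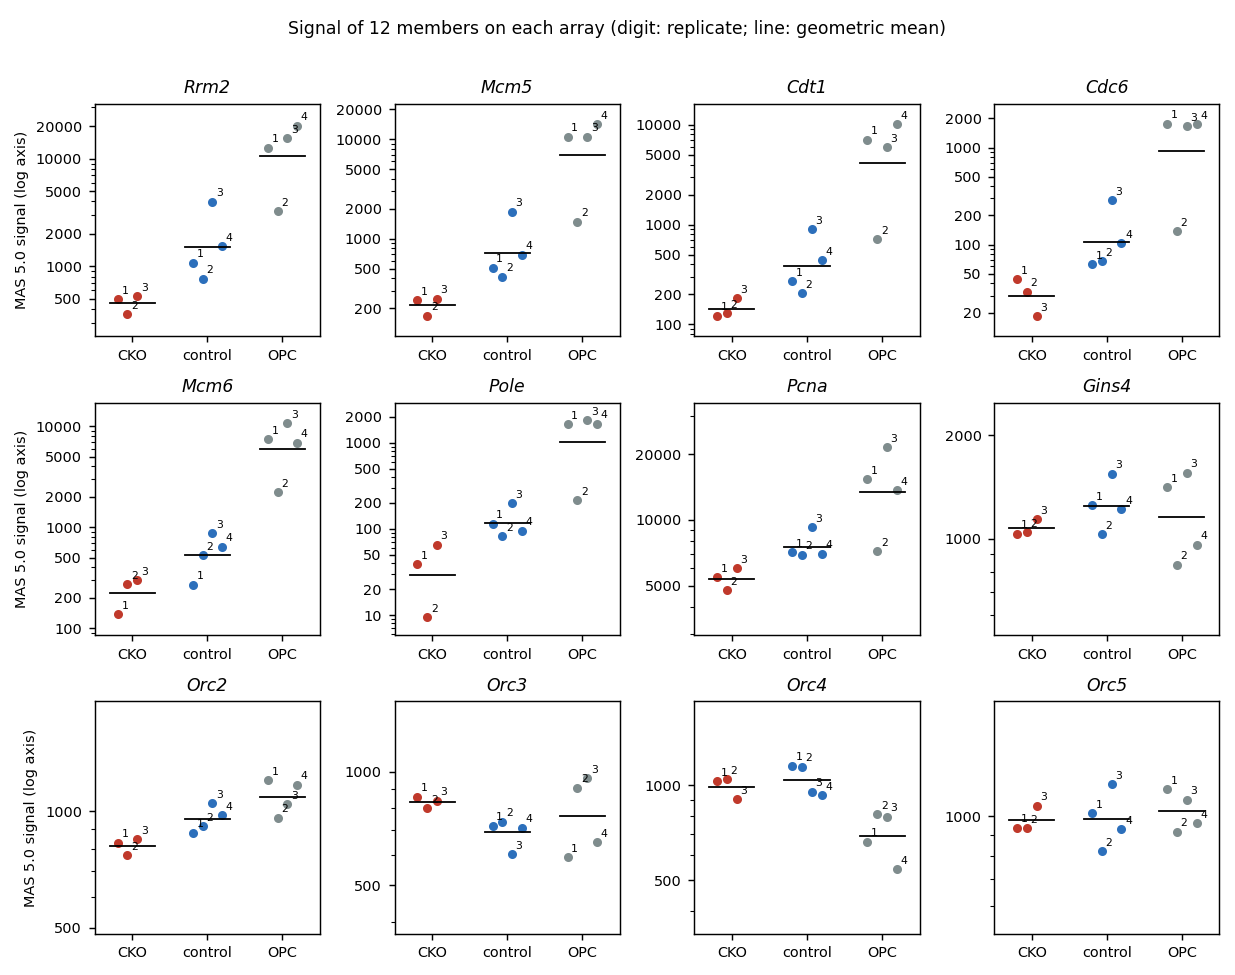
MAS 5.0 signal on a log axis for 12 members, 1 panel each, with arrays as points (digit for the replicate), grouped as CKO oligodendrocytes, control oligodendrocytes and OPCs, and the geometric mean as a line. Rrm2, Mcm5, Cdt1, Cdc6 and Pole step up in that order of groups with control array 3 and OPC array 2 apart from their groups, while the groups overlap for Gins4 and Orc5.

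Primase and the 3 replicative polymerases fell as well. All 9 genes were lower in both kinds of oligodendrocyte than in OPCs. Pole, the catalytic subunit of polymerase ε on the leading strand, had 38.8, 9.4 and 65.7 in CKO cells, 115, 82.6, 199.6 and 95 in control cells and 1639, 215, 1821 and 1650.5 in OPCs. The 3 groups did not overlap. Pole was at least 10.1-fold lower in CKO cells (limma, adjusted p = 0.000248) and 7.84-fold lower in control cells (adjusted p = 0.00188), the second being 13-fold without OPC replicate 2. Between CKO and control cells it was at least 1.16-fold lower in CKO cells, with an adjusted p of 0.234 over all arrays and 0.0198 with the replicate block.

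Prim1, the catalytic primase subunit that makes the RNA primer, had 227, 269.6 and 216 in CKO cells, 394, 332, 954 and 430.5 in control cells and 4892, 926, 4332 and 4317 in OPCs. Control array 3 was just above OPC array 2, and the CKO arrays were below both groups. It was 12.1-fold lower in CKO cells (adjusted p = 0.000189) and 6.13-fold lower in control cells (adjusted p = 0.000914) than in OPCs. The difference of CKO from control was -0.98 ± 0.52, with adjusted p = 0.304, and 0.0425 without OPC replicate 2. Prim2, its large subunit, averaged 389 ± 41.7 in CKO, 513 ± 120.0 in control and 2081 ± 937 in OPC arrays (SD, n = 3, 4 and 4), and fell 4.73-fold and 3.69-fold in CKO and control cells (adjusted p = 0.000369 and 0.000671).

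Pold1, the catalytic subunit of polymerase δ on the lagging strand, had 202, 219 and 154 in CKO cells, 219.8, 160.1, 348 and 219 in control cells and 2715, 384, 1599.5 and 1471 in OPCs. CKO and control arrays mixed, and all were below all OPC arrays. The folds were 6.18 in CKO cells (adjusted p = 0.00128) and 5.21 in control cells (adjusted p = 0.00137). Pole2, the second subunit of polymerase ε, had 155, 164 and 327 in CKO cells, 145, 184, 298 and 294 in control cells and 2182, 308, 1184 and 2164 in OPCs. OPC array 2 lay above the control arrays and below CKO array 3. Pole2 was 5.33-fold lower in CKO cells (adjusted p = 0.00451) and 4.94-fold lower in control cells (adjusted p = 0.00354), or 8.17-fold and 7.57-fold without OPC replicate 2.

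Pold3, an accessory subunit of polymerase δ, had 240.4, 232 and 229.8 in CKO cells, 238, 252, 266 and 237 in control cells and 1662, 439.6, 1396 and 1696 in OPCs. CKO and control arrays shared a narrow range far below the OPC arrays. The folds were 4.66 in CKO cells (adjusted p = 0.00057) and 4.42 in control cells (adjusted p = 0.000413). Its 2 other kept probe sets gave log2 differences of 0.40 and 0.17 between CKO and control cells, where the brightest gave -0.08. Pola1, the catalytic subunit of polymerase α, had 189.8, 154 and 179 in CKO cells, 177, 114, 281 and 232 in control cells and 1003, 165, 1064 and 1119 in OPCs, with OPC array 2 inside the oligodendrocyte range. Pola1 fell 3.64-fold in CKO cells (adjusted p = 0.0145, and 0.0506 without CKO replicate 2) and 3.33-fold in control cells (adjusted p = 0.0133), or 5.68-fold and 5.2-fold without OPC replicate 2.

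Pola2 and Pold2, second subunits of polymerases α and δ, fell in both. Pola2 averaged 181 ± 18.3 in CKO, 241 ± 52.8 in control and 995 ± 421 in OPC arrays, and Pold2 averaged 795 ± 114, 909.5 ± 249 and 2029 ± 726 (SD, n = 3, 4 and 4). The folds were 4.72 and 3.65 for Pola2 (adjusted p = 0.000288 and 0.000562) and 2.39 and 2.13 for Pold2 (adjusted p = 0.00509 and 0.00679), in CKO and in control cells. Between CKO and control cells, the log2 differences of the 7 genes other than Pole and Prim1 lay between -0.37 and -0.08, and none had an unadjusted p under 0.05.

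Clamp, clamp loader and single-strand binding genes fell, and several of the calls were lost when 1 array was left out. Of 9 genes, 8 were lower in control oligodendrocytes and 9 in CKO oligodendrocytes than in OPCs. Pcna, the ring that holds polymerases on DNA, had 5454, 4752 and 6023 in CKO cells, 7091, 6911, 9264 and 6992 in control cells and 15358, 7198, 21539 and 13644 in OPCs. CKO arrays lay below all control arrays, and OPC array 2 lay within the control range. Pcna was 2.49-fold lower in CKO cells (limma, adjusted p = 0.00273) and 1.79-fold lower in control cells (adjusted p = 0.0191) than in OPCs, and the control call was lost without OPC array 1 or without OPC array 3 (adjusted p of 0.0519 and 0.0512). CKO against control gave -0.48 ± 0.29, with an adjusted p of 0.371 over all arrays and 0.0199 with the replicate block.

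Rfc4, a small subunit of the clamp loader, had 367, 322 and 387 in CKO cells, 439, 411, 909.9 and 544 in control cells and 2369.7, 881, 3684 and 2434 in OPCs. OPC array 2 was just below control array 3 and above the other oligodendrocyte arrays. The folds were 5.62 in CKO cells (adjusted p = 0.000447) and 3.72 in control cells (adjusted p = 0.00147). Rfc5 averaged 288 ± 26.8 in CKO, 409 ± 175 in control and 1742 ± 791 in OPC arrays (SD, n = 3, 4 and 4), 5.25-fold and 3.95-fold lower in CKO and control cells (adjusted p = 0.000468 and 0.000916).

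Rfc1, the large subunit of the loader, had 703, 525 and 747 in CKO cells, 671, 597, 847 and 746 in control cells and 2244, 698, 1691 and 2973 in OPCs, with OPC array 2 inside the oligodendrocyte range. It was 2.54-fold lower in CKO cells (adjusted p = 0.0119, and 0.0538 without CKO replicate 2) and 2.34-fold lower in control cells (adjusted p = 0.0123). Its 2 other kept probe sets had log2 differences of -0.17 and 0.08 in CKO cells and -0.56 and -0.03 in control cells, smaller in size than on the brightest one.

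Rfc2 and Rfc3, further loader subunits, also fell. Rfc2 averaged 848 ± 40 in CKO, 918 ± 119.7 in control and 1434 ± 409.8 in OPC arrays, 1.62-fold and 1.51-fold lower in CKO and control cells (adjusted p = 0.0221 and 0.0306). The CKO call was lost without CKO array 1 or 2 or OPC array 3 or 4 (adjusted p of 0.053 to 0.0666), and the control call without control array 1, 2 or 4 or OPC array 3 or 4 (0.0698 to 0.0846). Rfc3 had 236, 253 and 304 in CKO cells, 220.2, 290.1, 371 and 276 in control cells and 463, 494, 1600.1 and 343 in OPCs, where OPC array 3 was far above the others. It was 2.2-fold lower in CKO cells (adjusted p = 0.0365) and 2.04-fold lower in control cells (adjusted p = 0.0381). Leaving out any 1 CKO array ended the first call (adjusted p of 0.0604 to 0.102), and leaving out CKO array 1 or 2, control array 1, 2 or 4, or OPC array 3 ended the second (0.0501 to 0.0975).

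Replication protein A coats single-stranded DNA. Its large subunit Rpa1 had 2955, 2955 and 4974 in CKO cells, 3353, 3677, 5926 and 4387 in control cells and 10071, 2757, 10026 and 16666 in OPCs. OPC array 2 was below all oligodendrocyte arrays, and the 3 other OPC arrays were above them all. Rpa1 was 2.34-fold lower in CKO cells (adjusted p = 0.048), a call lost without any 1 of 9 arrays, all but CKO array 3 and OPC array 2 (adjusted p of 0.0533 to 0.14). In control cells the log2 difference was -0.96 ± 0.44 (adjusted p = 0.0834), and without OPC replicate 2 it was -1.49 (adjusted p = 0.000341).

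Rpa2 averaged 419 ± 51.9 in CKO, 523 ± 131 in control and 1737 ± 831 in OPC arrays, 3.51-fold and 2.87-fold lower in CKO and control cells (adjusted p = 0.00462 and 0.00734). A second kept probe set of Rpa2 showed log2 differences of -0.28 in CKO cells and -0.01 in control cells, and had 378, 291.5, 1399 and 235.9 on OPC arrays 1 to 4. Rpa3 averaged 926 ± 46.3 in CKO, 862 ± 94.6 in control and 1452 ± 416 in OPC arrays (SD, n = 3, 4 and 4), 1.51-fold and 1.63-fold lower in CKO and control cells (adjusted p = 0.0324 and 0.00968), and its CKO call was lost without any 1 CKO array or without OPC array 1 or 3 (0.0633 to 0.096).

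Both genes of Okazaki fragment maturation fell in oligodendrocytes of both genotypes. Lig1, the ligase that seals the fragments, had 252, 239 and 230.2 in CKO cells, 323, 216, 452 and 281 in control cells and 4084, 588, 3386 and 3895 in OPCs. All oligodendrocyte arrays were below all OPC arrays, and control array 2 was below the CKO arrays. It was 9.35-fold lower in CKO cells (limma, adjusted p = 0.000583) and 7.41-fold lower in control cells (adjusted p = 0.000684), or 14.8-fold and 11.7-fold without OPC replicate 2. Fen1, the nuclease that trims primer flaps, had 835, 848 and 935 in CKO cells, 909.7, 925, 1242 and 744 in control cells and 5911, 807, 4245 and 8688 in OPCs. OPC array 2 was within the oligodendrocyte range and the other OPC arrays were above it. Fen1 fell 4.13-fold in CKO cells (adjusted p = 0.0133) and 3.84-fold in control cells (adjusted p = 0.0112), or 6.8-fold and 6.32-fold without OPC replicate 2. Between the genotypes both differed by less than their error, at -0.34 ± 0.55 for Lig1 and -0.11 ± 0.60 for Fen1.

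Among the genes of nucleotide supply, all 4 tested genes were lower in both kinds of oligodendrocyte than in OPCs. Rrm2, the S-phase subunit of ribonucleotide reductase, had 494, 358 and 527 in CKO cells, 1077, 766, 3994 and 1529 in control cells and 12629.8, 3246, 15500.2 and 20219 in OPCs. CKO arrays were below all control arrays, and control array 3 lay above OPC array 2. Rrm2 was 22.7-fold lower in CKO cells (limma, adjusted p = 0.000123) and 7.03-fold lower in control cells (adjusted p = 0.00157) than in OPCs.

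Between CKO and control cells Rrm2 was 3.23-fold lower in CKO cells, at -1.69 ± 0.61 (SE), and -1.22 without control replicate 3. The adjusted p was 0.127 over all arrays and 0.0221 with the replicate block, in a range of 0.0114 to 0.361 over 26 alternatives. Its 2 other kept probe sets had the same sign in all 3 comparisons.

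Rrm1, the large subunit, had 855, 678 and 664 in CKO cells, 992, 855, 1412 and 963 in control cells and 7164, 1578, 5744 and 5783 in OPCs. Its oligodendrocyte and OPC arrays did not overlap, and the folds were 5.95 in CKO cells (adjusted p = 0.000448) and 4.2 in control cells (adjusted p = 0.00104). On the other kept probe set of Rrm1 the log2 differences were -0.81 and -0.32, with 1374, 1071, 4260.2 and 785.5 on OPC arrays 1 to 4.

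Tk1, the thymidine kinase of the salvage route, had 80.1, 67.9 and 49.1 in CKO cells, 156, 71.7, 212 and 146 in control cells and 2474, 209, 2186 and 1931 in OPCs. OPC array 2 was just below control array 3. Tk1 was at least 12.2-fold lower in CKO cells (adjusted p = 0.000698) and 8.1-fold lower in control cells (adjusted p = 0.00217), the second being 14.3-fold without OPC replicate 2. Dut, which removes dUTP, had 413, 366 and 336 in CKO cells, 442, 362, 822 and 420.2 in control cells and 5412, 939, 3580.0 and 3371 in OPCs, with no overlap of oligodendrocytes and OPCs. The folds were 7.29 in CKO cells (adjusted p = 0.0005) and 5.62 in control cells (adjusted p = 0.000724). Tyms, thymidylate synthase, was at most 35.8 on oligodendrocyte arrays and had 151.8, 51.9, 189.2 and 110.4 on OPC arrays 1 to 4 on its brightest probe set, below the filter.

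**Figure D3:**
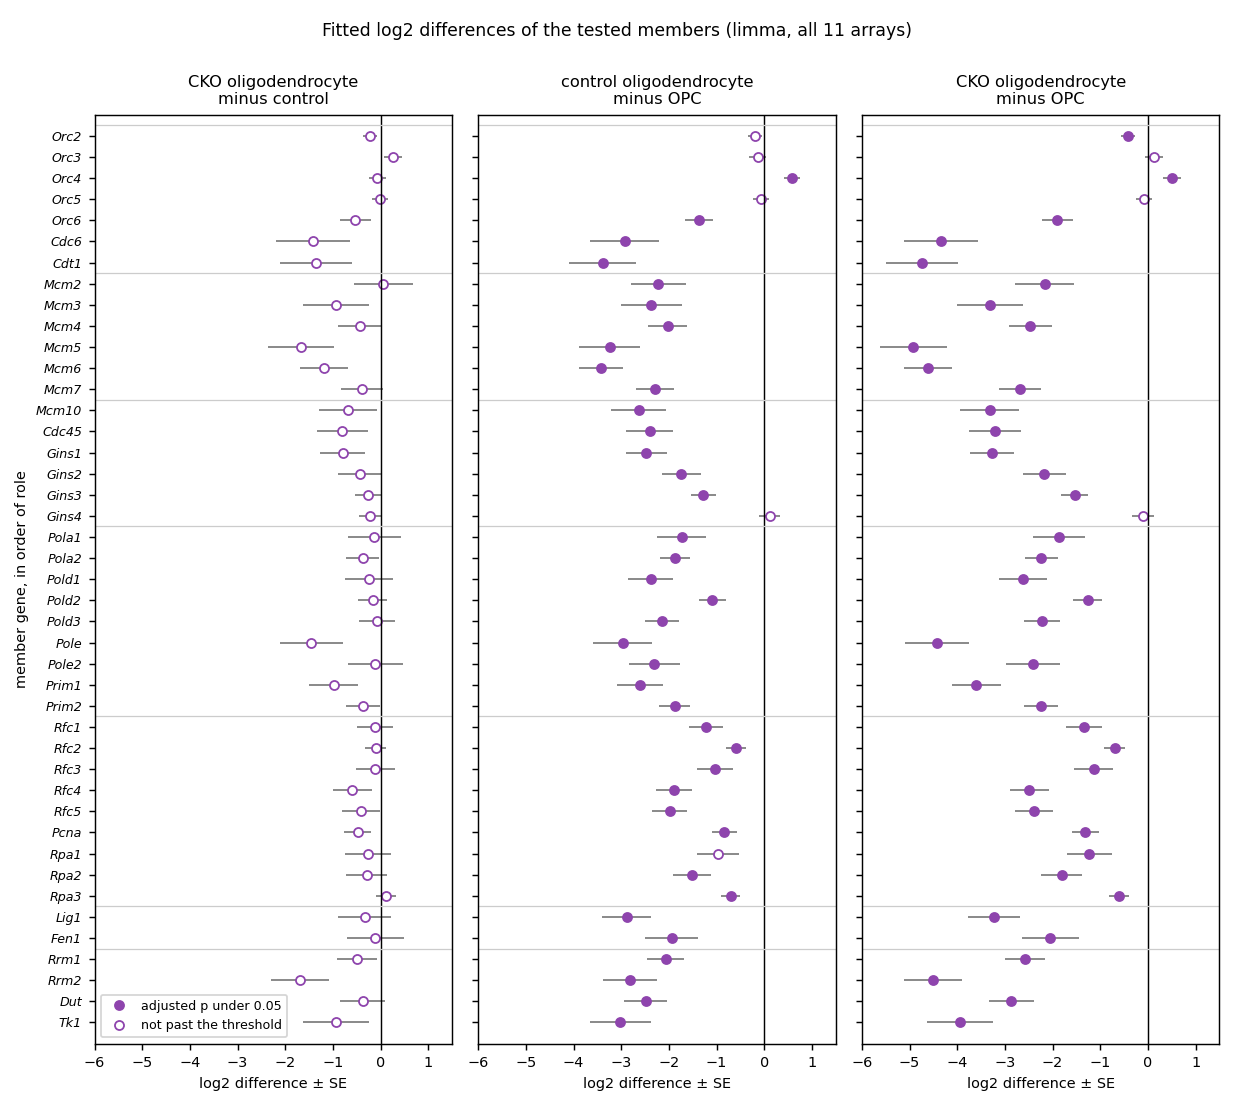
Fitted log2 difference with its standard error for the 43 tested genes in order of role, for CKO minus control oligodendrocytes, control oligodendrocytes minus OPCs and CKO oligodendrocytes minus OPCs; filled points have adjusted p under 0.05. The left panel has no filled point, and nearly all points of the other 2 panels are filled and left of 0.

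The contrast of the genotypes hung on how the spread was estimated. CKO and control arrays of the same number deviated together from their group means, at correlations of 0.242, 0.241 and 0.214 for numbers 1 to 3 across genes, which are not independent replicates. Of pairs with unlike numbers, CKO array 3 with control array 4 had 0.328, CKO array 2 with control array 1 had 0.159 and CKO array 1 with control array 2 had 0.14, and the 6 others were below 0. The 6 members lower under the replicate block were Rrm2, Mcm5, Mcm6, Pole, Cdt1 and Pcna. The same 6 arrays without the block gave 0 (6.66% of all genes). All 7 arrays of the 2 groups, with no block, gave 4 (7.47% of all genes), Rrm2, Mcm5, Gins1 and Pcna. Weighting arrays by quality gave 6 (9.53% of all genes), Rrm2, Mcm5, Mcm6, Pole, Gins1 and Pcna. None of these fits called a member higher.

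The contrast was smaller without control replicate 3. In that case, the median difference of the 43 genes was -0.18, and 34 of the 43 differences were negative. No member was called in the fit of the remaining 10 arrays, and 1 had an unadjusted p under 0.05. With the 2 groups alone and control replicate 3 left out, 4 were called (Rrm2, Mcm5, Gins1 and Prim1, beside 6.92% of all genes), and with number 3 left out under the block 4 were called (Rrm2, Mcm5, Mcm6 and Pole, beside 6.07%). Rrm2 and Mcm5 were each called in 7 of 26 alternatives.

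Markers of other cells moved with these groups and arrays. Of 10 astrocyte markers 9 were tested. Against OPCs, 9 were higher in control oligodendrocyte cultures (24.4% of all genes) and 9 in CKO oligodendrocyte cultures (23.8%). Their summed signal was 86091 to 92471 on CKO arrays, 56523 to 77300.3 on control arrays and 5330 to 10739 on OPC arrays. Gfap, the astrocyte filament protein, was 14658 to 17212 on all oligodendrocyte arrays and 61.8 to 100.3 on OPC arrays. Control replicate 3 had the lowest astrocyte sum of the oligodendrocyte arrays and, among them, the highest mean level of the replication genes, a mean log2(signal + 16) of 9.57, where the other control arrays had 8.71 to 9.01.

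Of 10 endothelial and mural markers, 2 were tested, Acta2 and Tagln. The 10 summed to 3459 to 5124 on CKO arrays and 277 to 574 on OPC arrays. On control arrays they summed to 730 to 1976, with 729.8 on replicate 3. Acta2 had 1234 to 1697.5 on CKO arrays and 298 to 1096 on control arrays. Tagln had 1997 to 3110 on CKO arrays and 80.7 to 873 on control arrays. Rgs5 and Pdgfrb did not pass the filter and reached at most 183.8 and 92.6 on any array. Col1a2 did not pass either, with 828.6 on CKO replicate 3 and at most 140.9 on any other array. Which cells gave the Acta2 and Tagln signals was not tested. Cldn5 and Pecam1, which define endothelium, reached at most 41.7 and 28.3 on any array. None of 10 microglia markers passed the filter, and their highest signal was 152.2. Neuron markers, 8 of 10 tested, summed to 7879 to 9640 on CKO arrays, 6077 to 8408 on control arrays and 11581 to 21764 on OPC arrays. Their mean log2 level ran the other way between the genotypes, at 8.12 to 8.51 on CKO arrays and 8.5 to 9.05 on control arrays. The 1 neuron marker called between them, Nefm, a neurofilament gene, fell in CKO cells (adjusted p = 0.0409, and up to 0.142 over the alternatives). Oligodendrocyte markers summed to 57209 to 70017 on CKO arrays and 106620 to 130593 on control arrays, and OPC markers to 59410 to 67060 and 46969 to 52118. Of 9 OPC markers tested, 6 had every CKO array above every control array, as did 17.4% of all genes. They were Gpr17, Lhfpl3, Ptprz1, Vcan, Olig2 and Sox10. Olig1 overlapped between the genotypes, and so did Cspg4, at 118 to 167 on CKO arrays and 71.3 to 174 on control arrays. Pdgfra was the 1 that went the other way without overlap, at 1316 to 1665 on CKO arrays and 1742 to 3532 on control arrays. The part of these cells in the levels of replication genes was not tested.

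OPC replicate 2 was the lowest OPC array for 40 of the 43 genes and lay within the range of the oligodendrocyte arrays for 24. Its signal as a percent of the mean of the 3 other OPC arrays was 8.0% for Cdc6, 9.20% for Cdt1, 9.53% for Tk1 and 10.1% for Mcm3. The median over the 43 genes was that of Mcm4, at 24.9%. At the other end were Orc2 with 84.5%, Orc5 with 85.3%, Orc4 with 121% and Orc3 with 123%. Oligodendrocyte markers, 9 of 10 with a probe set, summed to 81116 on that array and to 19295 to 52169 on the other OPC arrays. OPC markers summed to 88193 against 78616 to 106247, a sum of genes that went both ways. On that array Pdgfra was the lowest of the OPC arrays. So were Cspg4, at 1131 against 3506 to 3850, and Ptprz1, at 7739 against 10768 to 13858. Gpr17, at 16882 against 4274 to 7624, Lhfpl3 and Sox10 were the highest there, and Vcan, Olig1 and Olig2 lay between. The part of these markers in its replication gene levels was not tested.

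**Figure D4:**
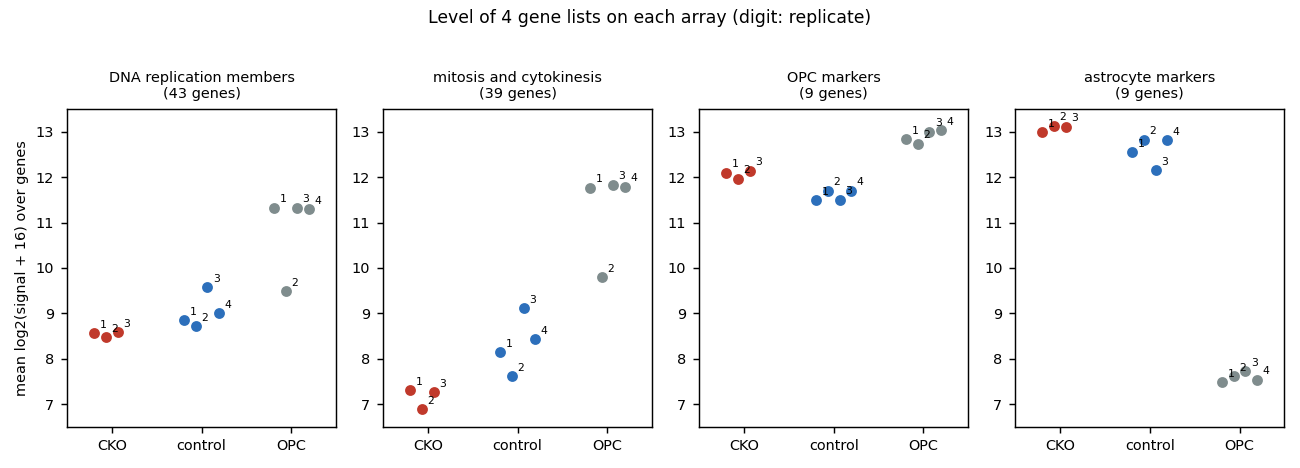
Mean log2(signal + 16) over the tested genes of 4 lists on each array (digit for the replicate), with CKO oligodendrocytes, control oligodendrocytes and OPCs from left to right. Replication genes were at 8.47 to 8.59 in CKO cells, 8.71 to 9.57 in control cells and 9.49 to 11.33 in OPCs, where replicate 2 had the lowest value. Mitosis genes were at 6.89 to 7.30 in CKO cells, 7.62 to 9.12 in control cells and 9.79 to 11.84 in OPCs.

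Probe sets of 1 gene did not always agree among OPC arrays. For the 25 tested genes with more than 1 kept probe set, the mean signal of OPC arrays 1 and 4 was set against OPC array 3. That ratio differed more than 4-fold between probe sets of Rpa2, Orc2 and Rrm1, and more than 2-fold for 9 genes. Arrays 1 and 4 are those with low 5′ to 3′ ratios, and where these probe sets lie on the transcripts was not examined here. Of 35 further kept probe sets, those with a sign opposite to the brightest one numbered 5 between CKO and control cells, 3 between control cells and OPCs and 4 between CKO cells and OPCs. They belonged to Mcm2, Pold3 and Rfc1, to Orc2 and Orc4, and to Orc2, Orc4 and Rfc1.

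Other genes of the replication programme were also mostly lower in oligodendrocytes. Of 70 listed, 64 were tested. Against OPCs, 48 fell and 6 rose in control oligodendrocytes, beside 29.6% and 24.4% of all genes. In CKO oligodendrocytes 47 fell and 7 rose, beside 26.8% and 23.8%. The medians of the list were -1.60 and -1.74, beside -0.09 and -0.05 for all genes. Ccna2, cyclin A2, averaged 157 ± 16.2 in CKO, 479 ± 237 in control and 5688 ± 2730.3 in OPC arrays (SD, n = 3, 4 and 4), with limma adjusted p of 1.33e-05 for CKO cells and 7.75e-05 for control cells. Dbf4, the activator of the kinase that fires origins, was 11.9-fold lower in CKO cells (adjusted p = 2.47e-05) and 6.71-fold lower in control cells (adjusted p = 8.27e-05). Dck, deoxycytidine kinase, was 5.35-fold and 3.56-fold lower.

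Between the genotypes this wider list gave 5 lower and 2 higher at an unadjusted p under 0.05, beside 8.88% and 12.3% of all genes. Past the adjusted threshold it gave 0 lower and 1 higher, beside 3.88% and 3.64%. The 1 was Brca1, a repair gene of S phase, with 3808, 2902 and 2784 on CKO arrays, 774.4, 911.4, 403.8 and 888 on control arrays and 1551, 460.0, 1469 and 1967 on OPC arrays. It was 4.34-fold higher in CKO than in control cells, with no overlap, at adjusted p = 0.0108 in the fit of all arrays and between 1.91e-05 and 0.0586 over the alternatives.

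Genes of mitosis and cytokinesis, which act after replication, are the closest other list. Of 39 tested, 38 fell in control oligodendrocytes and 38 in CKO oligodendrocytes against OPCs, beside 29.6% and 26.8% of all genes. The medians of the list were -2.99 and -4.23, beside -0.09 and -0.05 for all genes. Between the genotypes all 39 differences were negative, with a median of -1.21, beside 0.03 for all genes. Of these 2 passed, where 3.88% of all genes were lower. Anln, a scaffold of the cleavage furrow, was 4.62-fold lower in CKO cells (limma, adjusted p = 0.0124). Mki67, a marker of cycling cells, was 4.01-fold lower (adjusted p = 0.0443). With the replicate block 18 passed, beside 9.24% of all genes called lower. Without control replicate 3, 1 did, where 286 of all 10069 genes were lower. Whether the 2 lists differ was not tested.

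D cyclins and inhibitors of their kinases control the step before replication, and 10 of 12 were tested. In CKO against control cells 0 fell and 1 rose, beside 3.88% and 3.64% of all genes. In control cells against OPCs 2 fell and 2 rose, beside 29.6% and 24.4% of all genes. In CKO cells against OPCs 3 fell and 4 rose, beside 26.8% and 23.8%. Cdkn1b, the inhibitor p27, averaged 2177 ± 682 in CKO, 1108 ± 260 in control and 854 ± 115 in OPC arrays (SD, n = 3, 4 and 4), and was 1.93-fold higher in CKO than in control cells (adjusted p = 0.0296, and up to 0.161 over the alternatives). Cdkn1c, a further inhibitor, had 4008, 4072 and 7525 on CKO arrays and 461, 835, 483 and 1303 on control arrays. Its log2 difference of 2.79 was the largest of the list between the genotypes and did not pass in the fit of all arrays. On OPC arrays 1 to 4 it had 165, 3455, 171 and 171. Cdk4, the partner of D cyclins, was 2.03-fold lower in CKO cells (adjusted p = 0.000108) and 2.05-fold lower in control cells (adjusted p = 5.63e-05) than in OPCs. Ccnd2, cyclin D2, had 5811, 5584 and 6242 on CKO arrays, 3965, 2795, 1185 and 3119 on control arrays and 910.1, 92.6, 1285 and 614 on OPC arrays. All CKO arrays were above all control arrays, and control array 3 lay below OPC array 3. Ccnd2 was 11-fold and 4.76-fold higher in CKO and control cells than in OPCs (adjusted p = 0.00151 and 0.0105). Ccnd1, cyclin D1, lay the other way between the genotypes. It had 1022, 1458.5 and 1470 on CKO arrays and 2035, 2070, 4496 and 2538 on control arrays. On OPC arrays 1 to 4 it had 11451, 1353, 14605 and 12602. Of the 10 genes, Ccnd1 was the 1 with every CKO array below every control array, and 5 had every CKO array above. Of all genes, 14.2% lay below in this way and 17.4% above.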

How the data were processed

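Labelled RNA of 3 CKO, 4 control and 4 OPC samples was hybridised to Mouse Genome 430 2.0 arrays. The deposited intensity values are MAS 5.0 signals made with GCOS 1.3 and scaled per array to a target of 500, per the submitters' processing notes and the labels. No scanner files were used, so the background correction is that of the authors. How many arrays a group had sets the precision.

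Of the 45101 probe sets, 34945 had 1 gene in the platform annotation, 932 several and 9211 none, and 64 control probe sets were left out. Of those with 1 gene, 34754 matched RefSeq by gene number. Those with a signal of at least 200 on 3 arrays (18628) were kept, and the brightest stood for its gene. Log2(signal + 16) was fitted in limma 3.58.1 (R 4.3.3) over all 11 arrays, with an intensity trend and Benjamini-Hochberg adjustment over 10069 genes at 0.05. Fold changes are on that scale and understate those of dim genes. Where all arrays of the lower group were under 100, the fold is given as at least that of the other group's geometric mean over 100.

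On simulated data for the 10069 genes, changes of 1 on the log2 scale were recovered in 33% of cases for CKO against control, 53% for control against OPC and 38% for CKO against OPC. Changes of 2 were recovered in 85%, 90% and 89%. False calls made up 2.48%, 4.67% and 4.51% of the calls. Each size of change was given to 100 genes, where 2979 genes were called lower in control oligodendrocytes against OPCs. The rates are those of the simulated data, and false calls in the fits of the real arrays were not measured.

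Same-numbered CKO and control arrays were taken as pairs because all 3 correlations of their deviations passed 0.1, although 3 pairs of unlike number passed it too, 1 of them above every same-numbered pair. The members and lists were chosen with earlier results of these data known. The named genes are all members by role, with values per array for up to 20 called members by size in each comparison and for members whose probe sets disagree in sign. For each other list, up to 4 called genes with the smallest adjusted p per comparison could be named, and not all of these were. Myrf and some further genes of these lists were named as well. Protein sequences were not used here.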

Additional observations from a re-analysis of the deposited data

Results flagged for a closer look

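OPC replicate 2 lay far below the 3 other OPC arrays for 14 genes. Its signals were 455.2 for Mcm3, 1485.4 for Mcm5, 137.3 for Cdc6, 223.7 for Cdc45, 323.5 for Gins1, 250.8 for Gins2 and 165.4 for Pola1. The other OPC arrays had at least 3786 for Mcm3, 10652 for Mcm5, 1651 for Cdc6 and 1003 for Pola1. The same array had 439.6 for Pold3, 214.9 for Pole, 926 for Prim1, 588.3 for Lig1, 1578.3 for Rrm1, 512.3 for Rpa2 and 209.3 for Tk1, where the other OPC arrays had at least 1639 for Pole and 1931 for Tk1.

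Control replicate 3 lay far above the 3 other control arrays for 4 genes. Its signals were 1123.1 for Orc6, 278.5 for Cdc45, 1096.4 for Rfc2 and 9264.1 for Pcna. The other control arrays had at most 624.2 for Orc6, 109.5 for Cdc45, 872.4 for Rfc2 and 7091 for Pcna.

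These are gaps between the outermost array of a group of 4 and its nearest neighbour that passed Dixon's limit at the 95% level. Chance gives about 1 such gap in 20 groups, or 4.3 of the 86 groups examined. The genes share their arrays and are not independent.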

How the results depend on the processing

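With the replicate block, on the 6 same-numbered CKO and control arrays, 6 members were lower in CKO cells. The same arrays without the block gave 0, an alternative chosen after seeing the data. The fit of all 11 arrays gave 0, all 7 arrays of the 2 groups 4, array weights 6, and leaving out 1 array 0 to 8. Other settings chosen after seeing the data gave 4 for 2 groups without control replicate 3, 5 without OPC replicate 2 and control replicate 3, and 4 for the block without number 3. Over all genes, CKO against control had 391 lower and 367 higher, and 930 and 1307 with the block, in ranges of 226 to 960 and 148 to 1307 over the alternatives. The median was -0.47 to -0.18 leaving out 1 array and -0.42 to -0.15 otherwise. Against OPCs, control cells had 34 to 38 members lower leaving out 1 array and 26 to 38 otherwise (36 with the block), with medians of -2.52 to -1.84 and -2.52 to -1.53. CKO cells had 32 to 39 and 31 to 39 (33 with the block, where all genes gave 1547 lower and 1544 higher, against 2239 and 2011 for the 2 groups with no block and 2698 and 2400 for all 11 arrays; the block also leaves out OPC replicate 4), with medians of -2.77 to -2.11 and -2.65 to -1.73. The ranges not of single arrays include the fit without OPC replicates 1 and 4, the arrays of low 5′ to 3′ ratio. In that fit all genes gave 2283 lower and 2005 higher in control cells than in OPCs, and 2152 and 2023 in CKO cells. The 1 higher member, Orc4, was 0 in control cells with the mean over probe sets and without OPC replicates 1 and 4. In CKO cells it was 0 with these, without a filter, with quantile normalization, with 2 groups and with the block, and 0 to 1 leaving out 1 array. Same-numbered control and OPC arrays, and CKO and OPC arrays, did not pair by the correlation check. Signs turned for CKO against control in Mcm2 (quantile -0.01, mean over probe sets -0.33, leaving out 1 array -0.31 to 0.38), Pold3 (mean 0.17), Pole2 (block 0.02, the same arrays without it 0.02, leaving out 1 array -0.43 to 0.07) and Rfc1 (mean 0.13, weights 0, leaving out 1 array -0.22 to 0.03). They also turned in Orc5 (weights 0.07, leaving out 1 array -0.09 to 0.09) and Pola1 (weights 0.14, leaving out 1 array -0.35 to 0.05). Leaving out 1 array gave -0.26 to 0.01 for Pold2, -0.23 to 0.01 for Rfc3 and -0.22 to 0.03 for Fen1. In the 3 other later settings, in the order above, Orc5 had 0.09, 0.09 and 0.03, Pola1 0.05, 0.05 and 0.24, and Pold2 0.01, 0.01 and 0.08. Of these, the first 2 gave 0.03 for Pole2, 0.01 for Rfc3 and 0.03 for Fen1, and the last gave 0.15 for Pold1. For control against OPC, signs turned in Orc2 (mean 0.34), Orc3 (weights 0.09), Orc5 (leaving out 1 array -0.16 to 0.02) and Gins4 (weights -0.14, leaving out 1 array -0.04 to 0.25). For CKO against OPC they turned in Orc2 (mean 0.09), Orc3 (without OPC replicates 1 and 4, -0.16) and Gins4 (leaving out 1 array -0.26 to 0.04). Of these only Orc2 in CKO cells had passed the test. The cause was not tested. Signals under 100 limit the folds of Cdc6, Cdc45, Mcm10, Pole and Tk1.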
